A study of Sus scrofa with 6 samples.

Results

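The protein phosphatase genes described here are those whose Ensembl pig identifier maps to a symbol beginning PPP1, PPP2, PPP3, PPP4, PPP5 or PPP6. There were 51 of them among the 17627 genes of the deposited table, of which 10384 had a symbol. Levels came from RNA sequencing of longissimus dorsi, the long back muscle, and the 2 groups were Wannanhua, a pig breed native to China (3 libraries), and Yorkshire, a breed kept for lean pork (3 libraries). All 6 libraries are labelled 5 months old, although the series' design text calls the animals piglets. The labels name no treatment, genotype or sex, and do not say that each library is a separate animal. A p-value therefore weighs the breed difference against the spread between libraries, which need not be the spread between animals.

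Serine and threonine phosphatases of this family remove the phosphates that kinases add. A small number of catalytic subunits pair with many regulatory subunits, which bring the enzyme to its substrate, hold it inactive or hold it in place. In muscle, PP1 bound to a PPP1R3 subunit sits on glycogen, switches glycogen synthase on and glycogen phosphorylase off, and is opposed by adrenaline through cyclic AMP. PP1 bound to a PPP1R12 subunit acts on myosin. Calcineurin, the PPP3 enzyme, is switched on by calcium and calmodulin and is known for its part in slow-fibre gene expression through NFAT factors.

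The libraries differed in fibre-type markers, and this bears on what follows. Scaled counts, the values the deposited table heads as counts although they are not whole, summed to between 16373268 and 19251335 per library. Of the 8 skeletal muscle markers listed 4 were in the table by symbol, and all 4 were present in every library. NEB was 1.26-fold and DES 1.97-fold higher in mean FPKM in Wannanhua, ACTN2 4.22-fold and MYBPC1, whose product is the slow type of myosin-binding protein C, 4.98-fold. The 4 slow-fibre markers found (of 8; TNNT1, TNNI1, TNNC1 and MYL3) summed to 38305, 41054.5 and 10108 FPKM in Wannanhua 1, 2 and 3, and to between 5577 and 17014 in Yorkshire. The 5 fast-fibre markers found (of 8; TNNC2, MYL1, ATP2A1, CASQ1 and PVALB) summed to 19644, 11067 and 34770 FPKM in Wannanhua 1, 2 and 3, and to between 51308 and 51594 in Yorkshire. Wannanhua 3 thus stood apart from the other Wannanhua libraries on both lists. In a whole-muscle library, fewer fibres of a type and less RNA per fibre cannot be told apart.

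The PP1 inhibitors PPP1R1A and PPP1R14C, were lower in Wannanhua muscle, by 4.28-fold and 3.03-fold in mean FPKM, and they were the only phosphatase genes past the threshold. The genes with the next smallest p pointed the other way. These were PPP2CA, a catalytic subunit of PP2A, PPP1R12B, a myosin-targeting subunit, PPP1R9A, an actin-binding scaffold, and PPP1CB, a catalytic subunit of PP1. None of the 4 passed. All 4 were higher in every Wannanhua library than in any Yorkshire library, as were 20.3% of all tested genes. They were picked by p from the same values, so this adds no separate support. The glycogen-targeting subunits and the calcineurin subunits had no member past the threshold.

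Breeds were compared with limma on log2(FPKM + 1) over all 11791 genes that reached 1 FPKM in at least 3 libraries. A fold change on this scale understates the change of low genes. The threshold was a Benjamini-Hochberg adjusted p of 0.05. Of the 51 phosphatase genes 47 were tested, and 2 were called, both lower in Wannanhua. That is 4.26% of the members, against 3.05% of all tested genes called in either direction and 1.29% called lower. At an unadjusted p under 0.05 stood 9 members (19.1%), against 22.1% of all tested genes. The median log2 fold change, Wannanhua minus Yorkshire, was 0.15 over the members and 0.12 over all tested genes, and 25 of 47 members lay above the median of all genes. The libraries of the breeds did not overlap in 16 members (34.0%), against 29.9% of all tested genes. Of the 16, 12 were higher and 4 lower in Wannanhua, where all tested genes gave 20.3% higher and 9.63% lower. The lean towards higher values depended on the scaling. Quantile normalization moved the median log2 fold change of all genes from 0.12 to 0.0042 and that of the members from 0.15 to 0.02. It also turned the calls over all genes from 208 higher and 152 lower to 138 higher and 200 lower, and the members' signs from 29 positive and 18 negative to 26 and 21. On these counts the family was close to the background of the whole table, and the results below are those of single genes.

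**Figure D1:**
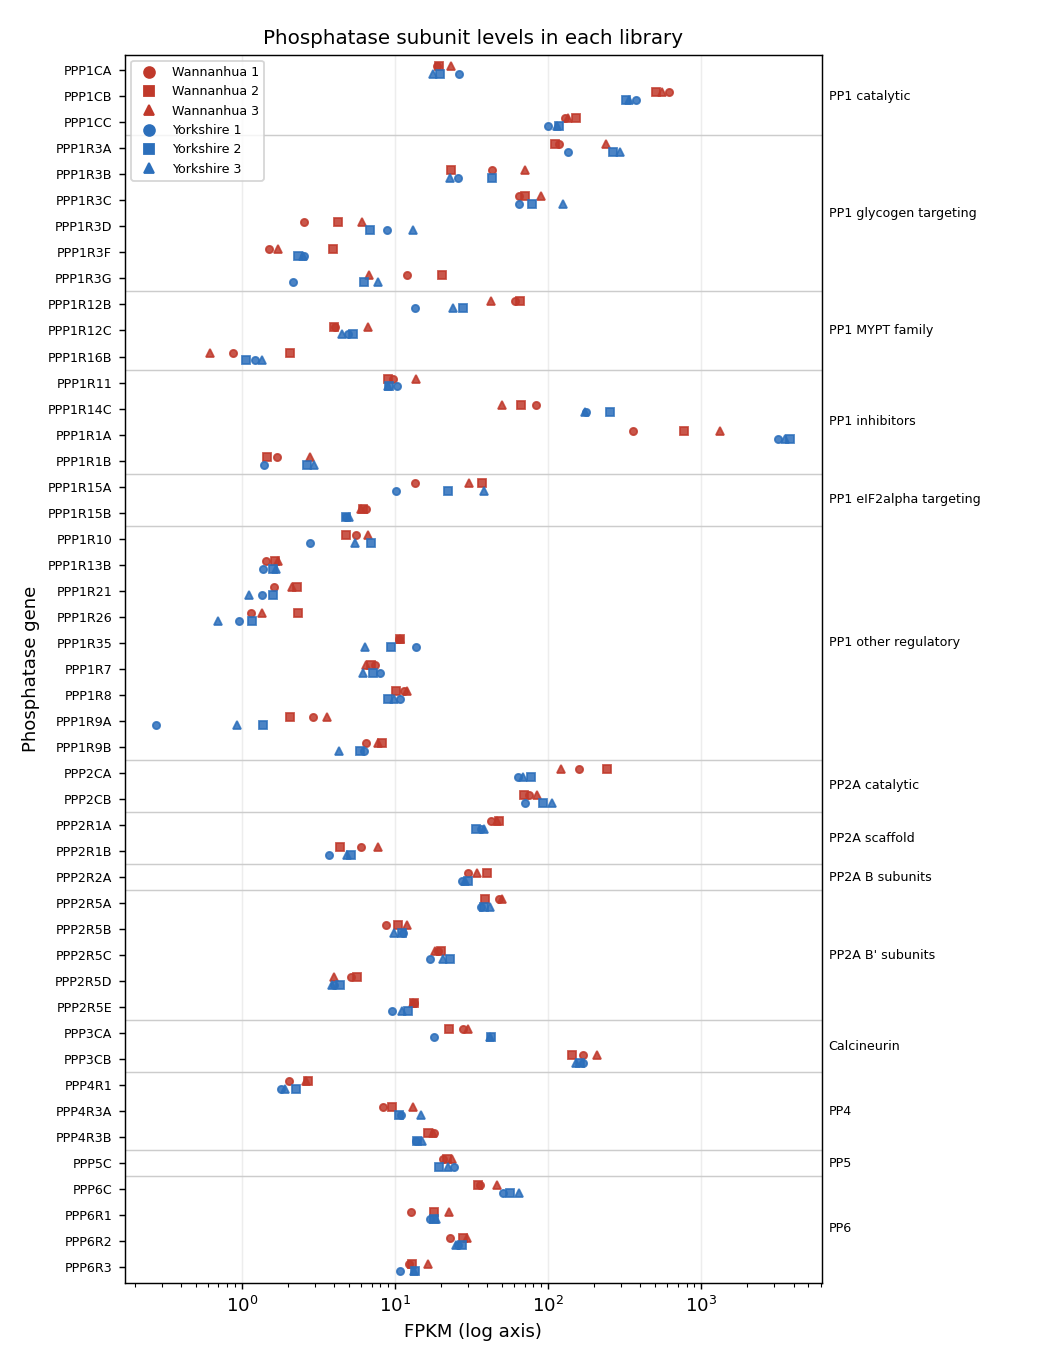
FPKM on a log axis (x) of the 47 tested phosphatase genes (y), grouped by class, with one point per library: red for Wannanhua, blue for Yorkshire, and the marker shape for the replicate number. PPP1R1A spans 355 to 3787 FPKM with the breeds apart, while PPP5C stays between 19.4 and 24.1 in all 6 libraries.

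PPP1R1A (ENSSSCG00000000298) encodes a PP1 inhibitor that works once protein kinase A has phosphorylated it. By mean over the 6 libraries it was the most abundant phosphatase gene on the length-scaled FPKM measure, although PPP1CB was above it in Wannanhua 1. It stood at 355, 767 and 1319.5 FPKM in Wannanhua 1, 2 and 3, and at 3167.7, 3786.8 and 3499.7 FPKM in Yorkshire 1, 2 and 3. The breeds did not overlap, and the Wannanhua libraries differed among themselves by more than the Yorkshire ones. Group means were 814 ± 484 and 3485 ± 310 FPKM (SD, n = 3), and the log2 fold change was -2.29 ± 0.44 (SE; adjusted p in limma = 0.0452). Among the Wannanhua libraries the highest level was in Wannanhua 3, the library with the highest fast-fibre sum of its breed. The lowest level was in Wannanhua 1, whereas the lowest fast-fibre sum was in Wannanhua 2. The part of fibre type in this difference was not tested. The call was close to the threshold: limma's adjusted p was 0.0133 without Wannanhua 3, but 0.103, 0.138, 0.0801, 0.116 and 0.156 without Wannanhua 1, Wannanhua 2, Yorkshire 1, Yorkshire 2 and Yorkshire 3. It was 0.0569 after quantile normalization, 0.0735 without the filter and 0.0502 with a pseudocount of 0.1.

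PPP1R14C (ENSSSCG00000004094) encodes a further PP1 inhibitor, one that protein kinase C makes potent. It stood at 82.8, 66.4 and 50.2 FPKM in Wannanhua 1, 2 and 3 and at 177, 252 and 175 FPKM in Yorkshire 1, 2 and 3. Every Yorkshire library was well above the highest Wannanhua library. Group means were 66.5 ± 16.3 and 201 ± 44.1 FPKM (SD, n = 3), and the log2 fold change was -1.59 ± 0.25 (SE; adjusted p in limma = 0.0321). Within Wannanhua the lowest level was in Wannanhua 3 and the highest in Wannanhua 1, and the part of fibre type in this difference was not tested. The log2 fold change without Wannanhua 3 was -1.41 and limma called the gene (adjusted p = 0.0299). It was not called without Wannanhua 1, Wannanhua 2, Yorkshire 2 or Yorkshire 3 (limma adjusted p = 0.0732, 0.120, 0.0830 and 0.111), nor without the filter (0.0559), and was called without Yorkshire 1 (0.0453).

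The other 2 measured genes classed here as inhibitors were low and overlapped between breeds. PPP1R1B, a dopamine- and cyclic-AMP-regulated relative of PPP1R1A best known in brain, ranged from 1.40 to 2.96 FPKM over the 6 libraries. PPP1R11, an inhibitor found in most tissues, ranged from 8.99 to 13.6 FPKM. Their log2 fold changes were -0.16 and 0.15 (limma adjusted p = 0.764 and 0.689), with 95% intervals of -0.77 to 0.46 and of -0.31 to 0.61. The 4 genes classed as inhibitors therefore had 2 lower past the threshold, 0 higher and 2 that did not pass. PPP1R8, a nuclear inhibitor grouped below with other PP1 partners, overlapped between breeds (log2 fold change 0.16, limma adjusted p = 0.607). PPP1R1C, PPP1R14A and PPP1R14B were not analysed here.

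**Figure D2:**
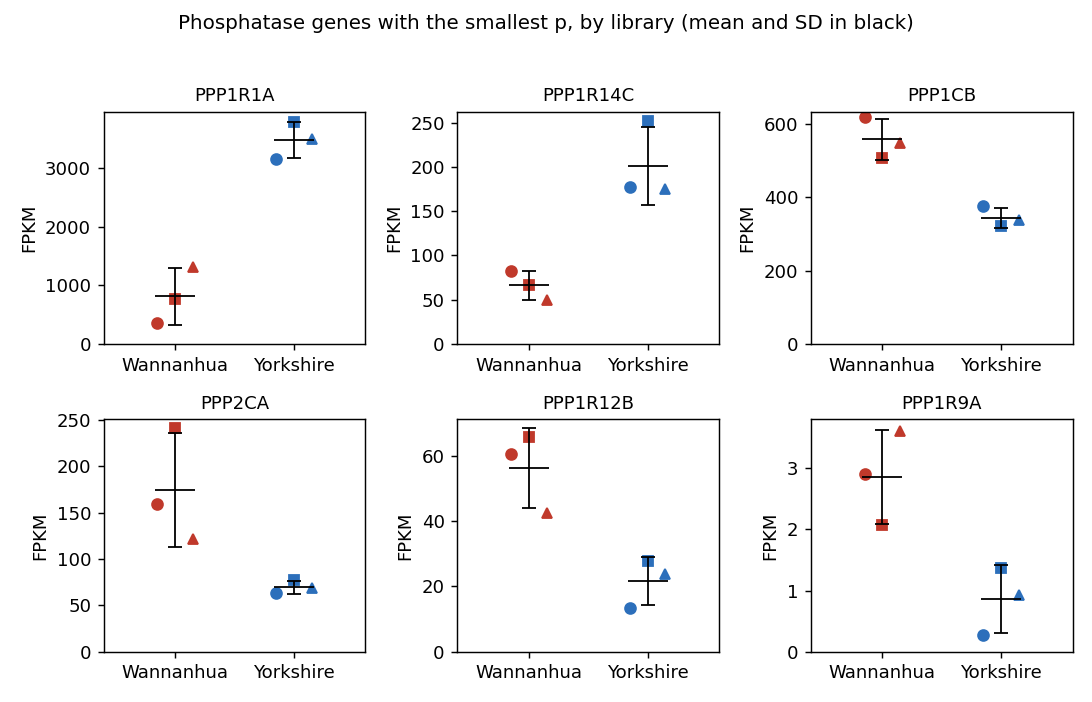
FPKM (y, from 0) of the 6 phosphatase genes with the smallest p in each breed (x), with one point per library and the mean and SD in black. PPP1R1A and PPP1R14C are lower in Wannanhua, PPP1CB, PPP2CA, PPP1R12B and PPP1R9A higher. In none of the 6 do the breeds overlap, which choosing genes by small p favours.

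Catalytic subunits of PP1 were led by PPP1CB, the isoform that pairs with myosin-targeting subunits. PPP1CB (ENSSSCG00000008540) stood at 618, 506 and 549 FPKM in Wannanhua 1, 2 and 3 and at 375, 322 and 337 FPKM in Yorkshire 1, 2 and 3. The breeds did not overlap, with a 1.62-fold higher mean in Wannanhua. Its log2 fold change was 0.69 ± 0.18 (SE; adjusted p in limma = 0.0872; 0.0509 to 0.253 over its 14 alternatives), so it did not pass. PPP1CC, the gamma isoform, was 1.26-fold higher in mean FPKM, also without overlap (138 ± 12.7 against 110 ± 9.66 FPKM, SD, n = 3; limma adjusted p = 0.306). PPP1CA, the alpha isoform, ranged from 17.6 to 26.1 FPKM with both ends in Yorkshire. Its log2 fold change of -0.03 had a 95% interval of -0.50 to 0.43 (limma adjusted p = 0.939). The 3 genes summed to 716 ± 44.4 FPKM in Wannanhua and 476 ± 21.8 in Yorkshire, with PPP1CB taking 74.7% to 80.8% of the sum in Wannanhua and 70.2% to 75.0% in Yorkshire.

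PPP2CA and PPP2CB encode the alpha and beta catalytic subunits of PP2A, which are almost identical as proteins. PPP2CA (ENSSSCG00000014298) stood at 159, 242 and 121 FPKM in Wannanhua 1, 2 and 3 and at 63.5, 77.2 and 68.3 FPKM in Yorkshire 1, 2 and 3. Every Wannanhua library was above every Yorkshire library, and the mean was 2.50-fold higher. The log2 fold change was 1.25 ± 0.27 (SE; adjusted p in limma = 0.0543; 0.0254 to 0.176 over its 14 alternatives). PPP2CB overlapped, at 74.3, 69.1 and 83.8 FPKM in Wannanhua and 70.1, 92.8 and 105 FPKM in Yorkshire (log2 fold change -0.22, 95% interval -0.70 to 0.26; limma adjusted p = 0.563). PPP2CA thus made up 68.1%, 77.8% and 59.1% of the PP2A catalytic FPKM in Wannanhua 1, 2 and 3, against 47.5%, 45.4% and 39.3% in Yorkshire 1, 2 and 3. PPP2CA was the larger part in every Wannanhua library and the smaller part in every Yorkshire library. An exact two-sided permutation test of this share gave p = 0.10, the smallest that 3 against 3 allows, and 0.25 after Benjamini-Hochberg adjustment over the 5 shares compared. How reads that match both genes were assigned is not stated by the labels, so this split is uncertain. The PPP1R1A share of PPP1R1A plus PP1 catalytic FPKM did not overlap between breeds (exact two-sided permutation p = 0.10, adjusted 0.25). PPP1R1A was lower and the PP1 catalytic sum higher in every Wannanhua library than in any Yorkshire library. This share therefore could not overlap and is no separate result. The shares of PPP1CB in PP1, PPP1R3A among PPP1R3 genes and PPP3CB in PPP3CA plus PPP3CB overlapped (exact permutation p = 0.2, 0.2 and 0.4, adjusted 0.25, 0.25 and 0.4).

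**Figure D3:**
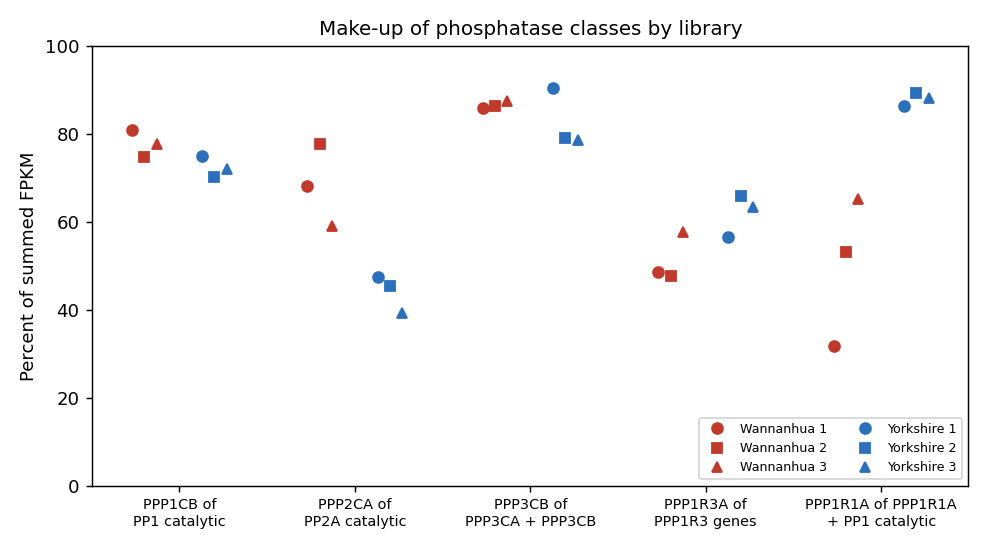
Percent of summed FPKM (y, 0 to 100) taken by one gene of a class in each library (x, 5 shares). The PPP2CA share is 59.1% to 77.8% in Wannanhua and 39.3% to 47.5% in Yorkshire, and the PPP1R1A share of PPP1R1A plus PP1 catalytic FPKM is 31.7% to 65.1% in Wannanhua and 86.4% to 89.2% in Yorkshire.

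The remaining catalytic subunits did not pass either. PPP6C, the catalytic subunit of PP6, had its 3 highest levels in Yorkshire. It stood at 35.9, 34.6 and 46.4 FPKM in Wannanhua 1, 2 and 3 and at 50.7, 56.2 and 64.8 FPKM in Yorkshire 1, 2 and 3 (log2 fold change -0.55 ± 0.19 SE, limma adjusted p = 0.156). PPP5C, a phosphatase that works with the chaperone HSP90, had means that differed by less than the spread, with 21.9 ± 1.47 FPKM (SD, n = 3) in Wannanhua against 21.8 ± 2.33 in Yorkshire, and a 95% interval of its log2 fold change of -0.38 to 0.39. The 9 catalytic genes together summed to 1252, 1209 and 1219 FPKM in Wannanhua 1, 2 and 3 and to 894, 908 and 921 FPKM in Yorkshire 1, 2 and 3. These sums varied little within a breed and did not overlap between breeds, and PPP1CB alone made up the largest part of them. Most of the breed difference came from PPP1CB (means of 558 and 345 FPKM) and PPP2CA (174 and 69.7), so it is no separate result. PPP1CA, PPP2CB, PPP3CA and PPP6C had lower means in Wannanhua.

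Calcineurin is a dimer of a catalytic A subunit and a calcium-binding B subunit, and only A subunits are described. The B subunit gene PPP3R1 and the A subunit gene PPP3CC were not analysed here. PPP3CB was the main A subunit measured, at 169, 142 and 208 FPKM in Wannanhua 1, 2 and 3 and 168, 161 and 151 FPKM in Yorkshire 1, 2 and 3. The breeds overlapped, and the 95% interval of the log2 fold change of 0.10 ran from -0.36 to 0.55 (limma adjusted p = 0.808). PPP3CA, the other A subunit measured, stood at 27.7, 22.5 and 30.0 FPKM in Wannanhua 1, 2 and 3 and at 17.8, 42.5 and 41.3 FPKM in Yorkshire 1, 2 and 3. Yorkshire 1 held the lowest value and the other Yorkshire libraries the highest. Its log2 fold change was -0.24 with an interval of -1.03 to 0.54 (limma adjusted p = 0.709), and -0.64 without Yorkshire 1 (0.118). Of the 22 calcineurin pathway genes listed, 20 were in the table and 16 tested. None passed in limma (3 at an unadjusted p under 0.05), and their median log2 fold change was 0.03. RCAN1, a calcineurin inhibitor whose gene NFAT drives, stood at 26.6, 69.5 and 36.8 FPKM in Wannanhua, against 22.4, 32.3 and 28.5 in Yorkshire (limma adjusted p = 0.383). NFATC1, an NFAT factor that calcineurin sends to the nucleus, ranged from 6.39 to 14.3 FPKM with overlap (limma adjusted p = 0.932).

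Glycogen-targeting subunits were led by PPP1R3A, the form typical of skeletal muscle, followed by PPP1R3C and PPP1R3B. None of the 6 measured passed, 2 had positive and 4 negative log2 fold changes, and the class varied more within a breed than any other class, with a median SD on the log2 scale of 0.54 against 0.23 over all tested members and 0.27 over all tested genes. PPP1R3A (ENSSSCG00000016640) stood at 117, 111 and 237 FPKM in Wannanhua 1, 2 and 3 and at 135, 264 and 295 FPKM in Yorkshire 1, 2 and 3. Wannanhua 3 lay among the Yorkshire libraries and Yorkshire 1 near Wannanhua 1 and 2 (log2 fold change -0.59, 95% interval -1.51 to 0.33; limma adjusted p = 0.422). PPP1R3C, which also binds glycogen-handling enzymes, ranged from 64.3 to 89.3 FPKM in Wannanhua and from 64.0 to 125 in Yorkshire. PPP1R3B, the form first known from liver, ranged from 23.0 to 70.1 FPKM in Wannanhua and from 22.7 to 42.8 in Yorkshire. Limma adjusted p was 0.696 for PPP1R3C and 0.530 for PPP1R3B.

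PPP1R3D and PPP1R3G, both low, differed most between breeds within this class, in opposite directions. PPP1R3D stood at 2.55, 4.25 and 6.10 FPKM in Wannanhua 1, 2 and 3 and at 8.82, 6.86 and 13.0 FPKM in Yorkshire 1, 2 and 3, without overlap (log2 fold change -1.01 ± 0.31 SE, limma adjusted p = 0.124). PPP1R3G stood at 11.9, 20.3 and 6.79 FPKM in Wannanhua and at 2.15, 6.22 and 7.72 FPKM in Yorkshire. Wannanhua 3 was below Yorkshire 3 (log2 fold change 1.15 ± 0.47 SE, limma adjusted p = 0.214), and the value was 0.70 without Yorkshire 1. PPP1R3F ranged from 1.49 to 3.90 FPKM with overlap (limma adjusted p = 0.861).

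Substrates of these holoenzymes were lower in mean level in Wannanhua without passing. GYS1, the muscle glycogen synthase, stood at 59.4, 66.2 and 59.3 FPKM in Wannanhua 1, 2 and 3 and at 99.3, 76.9 and 124 in Yorkshire 1, 2 and 3 (limma adjusted p = 0.129). PYGM, the muscle glycogen phosphorylase, stood at 1612, 1692 and 4158 FPKM in Wannanhua 1, 2 and 3, against 7148, 7281 and 6602 in Yorkshire (limma adjusted p = 0.0666). In neither did the breeds overlap. Of the 15 glycogen genes listed, 12 were in the table and tested, with a median log2 fold change of -0.47 and 5 at an unadjusted p under 0.05. Breeds did not overlap in 4, with 3 lower and 1 higher in Wannanhua. Over all tested genes, 22.1% stood at an unadjusted p under 0.05, 29.9% did not overlap and 3.05% were called. One passed, GBE1, the branching enzyme, which was higher in Wannanhua (log2 fold change 1.76, limma adjusted p = 0.0412).

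PPP1R12B (ENSSSCG00000010925), the striated-muscle member of the myosin-targeting family, stood at 60.5, 65.5 and 42.4 FPKM in Wannanhua 1, 2 and 3 and at 13.4, 27.6 and 23.8 FPKM in Yorkshire 1, 2 and 3. Wannanhua 3 was the lowest of its breed and still above every Yorkshire library. Group means were 56.1 ± 12.2 and 21.6 ± 7.33 FPKM (SD, n = 3), a ratio of 2.60, with a log2 fold change of 1.37 ± 0.30 (SE; adjusted p in limma = 0.0563; 0.0424 to 0.190 over its 14 alternatives). PPP1R12C, a widely expressed relative, ranged from 3.98 to 6.68 FPKM, and PPP1R16B, a membrane-bound relative known from endothelium, from 0.613 to 2.06 FPKM, both with overlap (limma adjusted p = 0.958 and 0.895). Markers of smooth muscle, where PPP1R12 subunits are also used, were in the table for 7 of 9 symbols, none listed at 0. Their sum was 561 to 615 FPKM in Wannanhua and 268 to 343 in Yorkshire. Most of it came from SYNPO2, so this sum was not taken as a measure of smooth muscle. The other 6 summed to 93.1, 197 and 246 FPKM in Wannanhua 1, 2 and 3, against 109, 102 and 146 in Yorkshire 1, 2 and 3, with overlap. None of the 7 passed in limma (2 at an unadjusted p under 0.05), and 6 of 7 had positive log2 fold changes. CNN1 had the negative one (-0.48, limma adjusted p = 0.481). SYNPO2 and SMTN did not overlap between breeds (2.20-fold and 1.94-fold higher means in Wannanhua, limma adjusted p = 0.0533 and 0.0881) while the other 5 overlapped, ACTA2 and MYH11 among them (1.83-fold and 1.75-fold higher means, limma adjusted p = 0.430 and 0.463). Over all tested genes, the breeds did not overlap in 29.9%. The part of smooth muscle in the PPP1R12B difference was not tested. Of 11 genes listed for the myosin phosphatase pathway, 7 were in the table and tested, none passed in limma (2 at an unadjusted p under 0.05), and their median was 0.40. Log2 fold changes were positive in 6 and negative in 1, where 62.6% of all tested genes were positive (50.5% after quantile normalization). The breeds did not overlap in 3, all higher in Wannanhua, where 20.3% of all tested genes were higher without overlap.

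**Figure D4:**
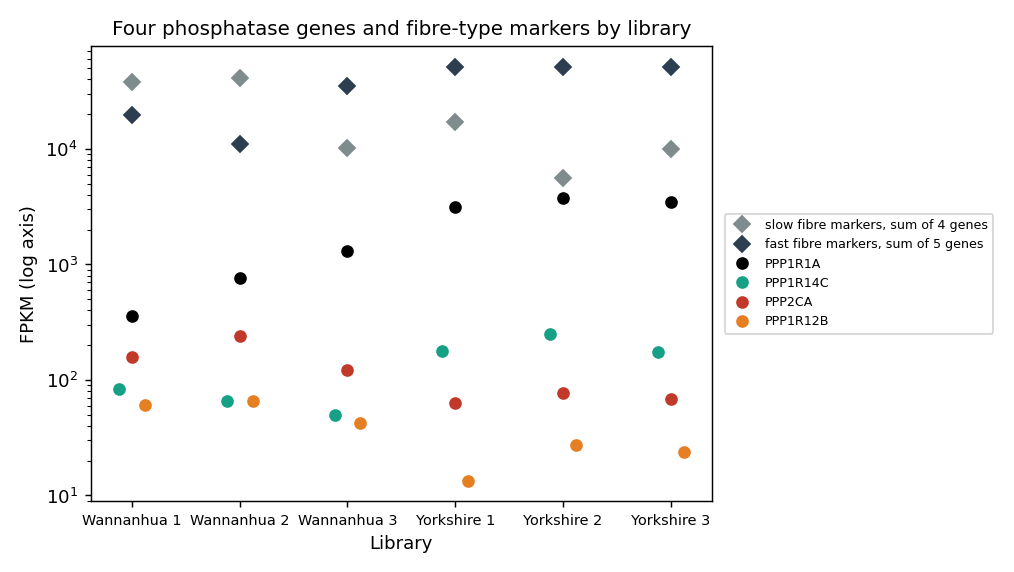
FPKM on a log axis (y) in each of the 6 libraries (x) for the summed slow-fibre and fast-fibre markers (diamonds) and for PPP1R1A, PPP1R14C, PPP2CA and PPP1R12B (circles). The slow-fibre sum is 41054.5 in Wannanhua 2 and 10108 in Wannanhua 3. PPP2CA and PPP1R12B are higher and PPP1R1A and PPP1R14C lower in every Wannanhua library than in any Yorkshire library, and the part of fibre type was not tested.

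PPP2CA and PPP1R12B passed the threshold under 3 of the 14 alternative treatments of the data, the same 3 for both genes. With log2 scaled counts in place of FPKM, limma's adjusted p was 0.0467 for PPP2CA and 0.0424 for PPP1R12B, and 3.50% of all tested genes were called. With only genes that reached 5 FPKM the values were 0.0458 and 0.0472, with 5.42% of genes called. Without Wannanhua 3 they were 0.0254 and 0.0480, with 4.44% of genes called. Both kept a positive log2 fold change under all 14 alternatives, from 0.99 to 1.48 for PPP2CA and from 1.08 to 1.57 for PPP1R12B.

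No other PP2A subunit passed. The enzyme's scaffold is made from PPP2R1A or PPP2R1B, and a B-type subunit then sets its target. PPP2R1A, the main scaffold gene, stood at 42.1, 47.3 and 45.9 FPKM in Wannanhua 1, 2 and 3 and at 36.2, 33.6 and 38.2 FPKM in Yorkshire 1, 2 and 3. The breeds did not overlap, but the ratio of means was 1.25 (log2 fold change 0.32, limma adjusted p = 0.280). PPP2R1B was lower in level, from 3.71 to 7.72 FPKM, with overlap (limma adjusted p = 0.439). Among B subunits PPP2R2A, which recognises cell-cycle substrates, ranged from 30.0 to 39.6 FPKM in Wannanhua and from 27.2 to 30.0 in Yorkshire (limma adjusted p = 0.414). The 5 measured B′ subunits, PPP2R5A to PPP2R5E, had log2 fold changes between -0.06 and 0.25 and none passed. PPP2R5A was the most abundant of them, at 45.5 ± 6.16 and 38.7 ± 2.49 FPKM (SD, n = 3; limma adjusted p = 0.489). PPP2R5C ranged from 17.0 to 22.7 FPKM with overlap (limma adjusted p = 0.869), and PPP2R5E from 13.0 to 13.3 in Wannanhua and from 9.50 to 12.2 in Yorkshire (0.403). Of 15 listed PP2A regulators and partners 8 were in the table and 7 tested, with a median of -0.07 and none past limma's threshold (1 at an unadjusted p under 0.05).

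The PPP1R15 pair brings PP1 to the translation factor eIF2alpha and so ends the arrest of translation under stress. PPP1R15A, the stress-induced member, varied most of all 47 tested members within a breed, at 13.4, 36.9 and 30.4 FPKM in Wannanhua 1, 2 and 3 and at 10.1, 22.1 and 37.9 FPKM in Yorkshire 1, 2 and 3. Only 3.43% of all tested genes had a larger within-breed SD. The 95% interval of its log2 fold change of 0.26 was -0.94 to 1.47 (limma adjusted p = 0.799), so it allows a sizeable difference in either direction. PPP1R15B, the constitutive member, varied least of the 47, at 6.47, 6.15 and 5.94 FPKM in Wannanhua and 4.76, 4.80 and 5.00 FPKM in Yorkshire. Its breeds did not overlap, with a ratio of means of 1.28 and a limma adjusted p of 0.297.

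PPP1R9A and PPP1R9B, the scaffolds neurabin and spinophilin, tie PP1 to actin. PPP1R9A was low, at 2.91, 2.07 and 3.61 FPKM in Wannanhua 1, 2 and 3 and at 0.276, 1.38 and 0.927 FPKM in Yorkshire 1, 2 and 3, where its scaled counts went down to 7.65. The breeds did not overlap and the ratio of means was 3.33. The log2 fold change was 1.08 ± 0.28 (SE; adjusted p in limma = 0.0811), and 1.80 with a pseudocount of 0.1 and 1.92 from scaled counts (limma adjusted p = 0.117 and 0.0923). PPP1R9B stood at 7.48 ± 0.90 and 5.47 ± 1.04 FPKM (SD, n = 3), also without overlap (limma adjusted p = 0.274).

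Nuclear and other PP1 partners showed little. PPP1R7 and PPP1R8, a conserved regulator of PP1 and a nuclear inhibitor, ranged from 6.15 to 7.92 FPKM and from 8.97 to 11.9 FPKM, with overlap (limma adjusted p = 0.949 and 0.607). PPP1R35, a centriole protein, ranged from 10.6 to 10.7 FPKM in Wannanhua and from 6.36 to 13.7 in Yorkshire (limma adjusted p = 0.742). PPP1R21 ranged from 1.10 to 2.28 FPKM without overlap, and PPP1R26 from 0.694 to 2.32 FPKM with overlap (limma adjusted p = 0.290 and 0.319). PPP1R10 and PPP1R13B did not pass either (limma adjusted p = 0.747 and 0.920). Of 14 listed PP1 partners that carry no PPP1R symbol, 10 were in the table and 8 tested. All 8 had positive log2 fold changes, where 62.6% of all tested genes did (50.5% after quantile normalization). The breeds did not overlap in 5 of the 8, all higher in Wannanhua, where 20.3% of all tested genes were higher without overlap. Their median was 0.29, and none passed in limma (2 at an unadjusted p under 0.05).

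PP4 is described through regulatory subunits alone, since its catalytic gene PPP4C was not analysed here. PPP4R3B, which directs PP4 to its substrates, stood at 17.3 ± 0.87 FPKM (SD, n = 3) in Wannanhua against 14.1 ± 0.70 in Yorkshire, without overlap (limma adjusted p = 0.335). PPP4R3A ranged from 8.29 to 14.6 FPKM and PPP4R1 from 1.79 to 2.67 FPKM, both with overlap (limma adjusted p = 0.614 and 0.515). The PP6 scaffolds PPP6R1, PPP6R2 and PPP6R3 ranged from 12.7 to 22.5, from 22.7 to 29.6 and from 10.7 to 16.3 FPKM, and their log2 fold changes lay between -0.03 and 0.14. PPP6C was thus the member of PP6 with the largest difference. The other 4 members, PPP1R36, PPP2R2B, PPP2R2C and PPP4R4, did not reach 1 FPKM in 3 libraries and were not tested. PPP2R2B was listed at 0 in Wannanhua 2, and PPP4R4 in Yorkshire 1 and 2.

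**Figure D5:**
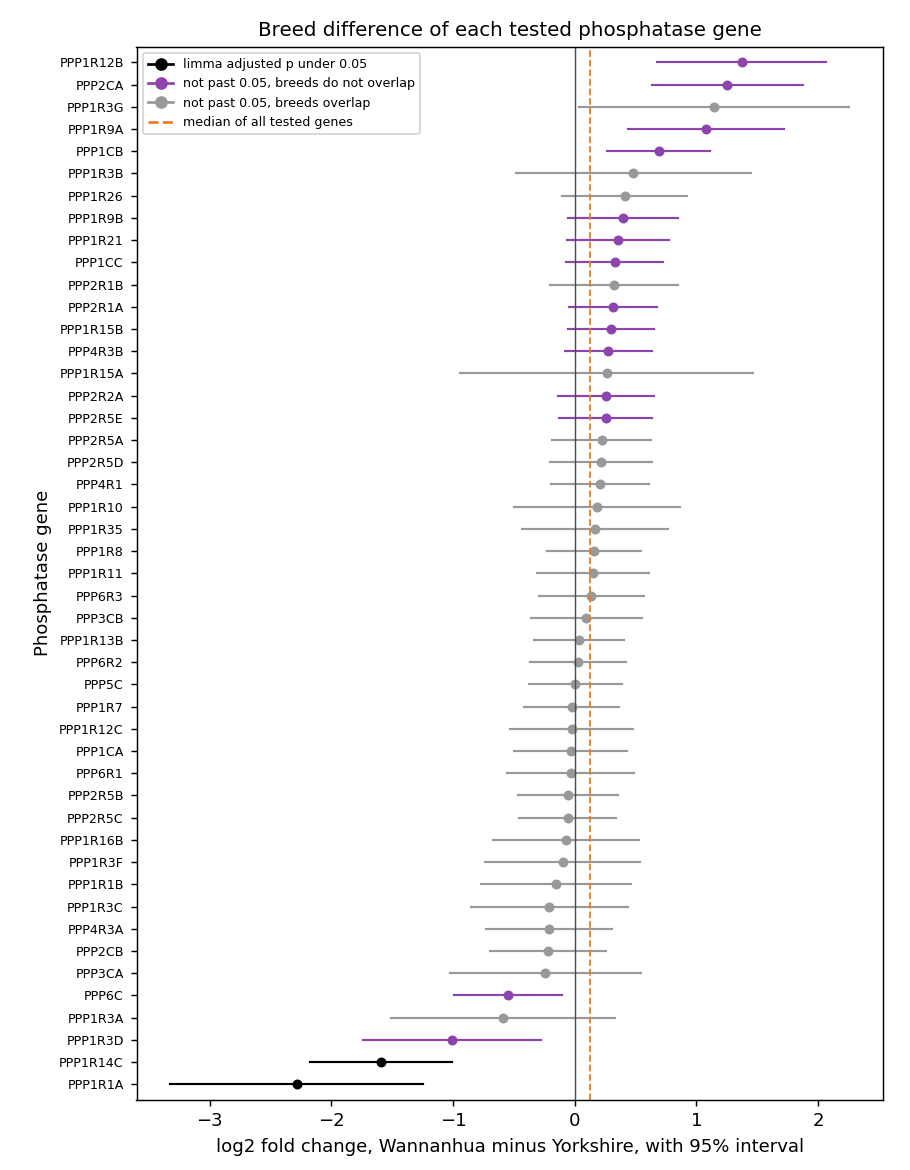
Log2 fold change, Wannanhua minus Yorkshire, with its 95% interval (x) for each of the 47 tested phosphatase genes (y, in order of fold change). Black marks the 2 genes past the threshold, purple the 14 others whose breeds do not overlap, grey the 31 that overlap, and the dashed line the median of all tested genes at 0.12.

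Further lists give the setting. Metal-dependent phosphatases had 13 of 18 symbols in the table and 12 tested. Their median was 0.01, and none passed in limma (1 at an unadjusted p under 0.05). Among markers of muscle, MYBPC1 and ACTN2 passed, both higher in Wannanhua (limma adjusted p = 0.0295 and 0.0312), and the fast-fibre marker CASQ1 passed, lower in Wannanhua (0.0435); the 4 slow-fibre markers had a median of 1.40 and none passed (1 at an unadjusted p under 0.05). Endothelial markers summed to 35.1 to 52.1 FPKM in Wannanhua and 39.1 to 47.4 in Yorkshire (3 of 6 symbols in the table). Macrophage markers summed to 10.8 to 14.3 and 9.54 to 19.5 FPKM (3 of 6), and adipocyte markers to between 1.29 FPKM in Yorkshire 1 and 13.9 FPKM in Wannanhua 2 (2 of 5). None of these 8 genes passed in limma or had an unadjusted p under 0.05, and none was listed at 0.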

How the data were processed

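The authors deposited 1 table with an FPKM value (fragments scaled by transcript length and library depth) and a column headed count, for each of 6 poly-A RNA libraries, per the file headers and the labels' protocols. Build Sscrofa10.2 and the tools TopHat2 2.0.6 and CASAVA 1.7 come from the submitters' processing notes, with no role; neither counter nor annotation is named there. The kit does not mark strand. The deposited count values were not whole numbers, so they were treated as a signal, here called scaled count. Symbols came from a table that matched 58.9% of identifiers; 18 further phosphatase symbols in it had no row in the deposited table. No sequence or annotation of that build was used.

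FPKM values were compared on log2(FPKM + 1) with limma 3.58.1 in R 4.3.3 (breed as the only term, empirical Bayes with trend and robust settings), tested on simulated data first. A gene needed 1 FPKM in at least 3 libraries. Left out were 7 genes listed at 0 in 1 or 2 libraries despite a scaled count of at least 10000 in another. COX1, ATP8, ATP6 and COX3 were at 0 in Wannanhua 1 and 2, and MYH6 in Wannanhua 2. ACTA1 was at 0 in Wannanhua 1 and Yorkshire 2, and MYH8 in Yorkshire 2. The effect of these zeros on the FPKM scale of the libraries was not tested. Group sizes limit precision to 3 libraries a breed. Named genes were members past the threshold, all catalytic, glycogen-targeting, PPP1R12, PPP1R15, inhibitor and calcineurin genes, the 10 others with the smallest p and the 3 most abundant of each class; PPP1R10, PPP1R13B, PPP1R36, PPP2R5B, PPP2R5D, PPP4R4 and PPP6R3 were named so that every member has an account. Members and lists were chosen with earlier results of these data known. Shares were compared by exact permutation in scipy 1.17.1.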

Additional observations from a re-analysis of the deposited data

How the results depend on the processing

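The limits are few libraries, calls near the threshold and values that are not counts. A count test on reads recovered from the scaled counts was planned and not run, because the deposited values are not whole numbers; limma on log2 scaled counts, chosen after seeing the data, took its place. The 360 calls over all genes became 69 without a filter, 205 with the replicate block and 27 to 524 with 1 library left out. The 2 phosphatase calls became 1 after quantile normalization, 1 with a pseudocount of 0.1, 4 with a filter at 5 FPKM, 4 on scaled counts, 0 without a filter (9 at an unadjusted p under 0.05) and 0 to 4 with 1 library left out. They were 0 in limma without Wannanhua 1, Wannanhua 2, Yorkshire 2 or Yorkshire 3 (7 or 8 at an unadjusted p under 0.05), 1 without Yorkshire 1 and 4 without Wannanhua 3. With the replicate block PPP1R1A and PPP1R14C were still called (limma adjusted p = 0.0485 and 0.0429) and no other member was. Deviations of same-numbered libraries from their breed's mean had correlations of 0.101, -0.012 and 0.107, and 4 of 6 libraries correlated best with their own number. Whether the numbers pair libraries is not known from this, and the main fit did not pair them.

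Of 42 named members tested, 28 kept their direction under every alternative run and 14, each with a log2 fold change of at most 0.26 in size, did not; the cause was not tested. With 1 library left out their log2 fold changes ran from -0.15 to 0.12 for PPP1CA, -0.014 to 0.26 for PPP1R11, -0.23 to 0.081 for PPP1R12C, -0.22 to 0.69 for PPP1R15A, -0.34 to 0.12 for PPP1R16B, -0.081 to 0.42 for PPP1R35, -0.41 to 0.061 for PPP1R3C, -0.40 to 0.085 for PPP1R3F, -0.11 to 0.052 for PPP1R7, -0.17 to 0.032 for PPP2R5C, -0.046 to 0.23 for PPP3CB, -0.072 to 0.076 for PPP5C, -0.22 to 0.18 for PPP6R1 and -0.052 to 0.13 for PPP6R2. With scaled counts, the direction turned at 0.034 for PPP1R12C, -0.014 for PPP3CB and 0.032 for PPP6R1. With quantile normalization, the direction turned at -0.077 for PPP5C and -0.031 for PPP6R2.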

Other observations

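RCAN2, a calcineurin inhibitor related to RCAN1, was chosen for mention after its values were seen. It stood at 95.4, 60.3 and 18.6 FPKM in Wannanhua 1, 2 and 3 and at 8.72, 7.30 and 8.12 FPKM in Yorkshire 1, 2 and 3. The breeds did not overlap, Wannanhua 3 lay nearest to Yorkshire, and the gene did not pass (log2 fold change 2.43 ± 0.52 SE, limma adjusted p = 0.0558).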
